A study of Homo sapiens with 6 samples.

Results

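Embigin (EMB), basigin (BSG) and neuroplastin (NPTN) are small membrane proteins with immunoglobulin-like domains, and the monocarboxylate transporters MCT1 (SLC16A1), MCT4 (SLC16A3) and MCT2 (SLC16A7) are the carriers with which embigin and basigin are known to pair. The transcripts of these 6 genes, of 26490 gene symbols in the count table, were followed in SW403, an established human colon adenocarcinoma cell line, with and without knockdown of IRS2, the gene of an adaptor of the insulin and IGF1 receptors. EMB was chosen by its fall in this same comparison, one of the largest, so its values are a description and carry no test. The other 5 genes were named as its relatives and carrier partners, with earlier results of these data known.

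The study holds 6 RNA-seq libraries, 3 of control cells (genotype given as WT) and 3 of IRS2 knockdown cells, all grown for 24 h in DMEM with 10% fetal bovine serum and no added treatment. The titles number the libraries as biological replicates, and the labels say that cells were seeded in triplicate. Titles and genotype call the second group a knockdown, while its sample descriptions read IRS2KO and those of the controls NS. The labels do not say how IRS2 was lowered or whether each group is 1 cell clone, so p-values measure the spread between cultures only. Total counts were 11816973 to 12585013 in control and 14329348 to 18114656 in knockdown, so each knockdown library was the deeper. IRS2 was at 33.2 ± 1.42 CPM (counts scaled to the total of the library) in control and 12.4 ± 0.535 CPM in knockdown (mean ± SD of n = 3); its edgeR adjusted p was 3.12e-11. Of 12 markers of colon epithelium, 5 had a mean over 10 CPM, led by KRT18 at 1101 CPM, while 6, among them CDH1, CDH17 and LGALS4, were under 1 CPM and KRT20 and CDX1 had no read. Endothelial and immune markers summed to at most 0.876 and 3.81 CPM in any library.

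Monocarboxylate transporters carry lactate, pyruvate and ketone bodies across the plasma membrane together with a proton. SLC16A1 is found in most tissues, and in colon epithelium it also takes up butyrate. SLC16A3 is known for lactate export from glycolytic cells and is inducible by hypoxia, while SLC16A7 has a high affinity for its substrates. These carriers reach the cell surface only with an ancillary protein: basigin is the usual partner of SLC16A1 and SLC16A3, and embigin the preferred partner of SLC16A7. Neuroplastin, the third relative, is known as a subunit of plasma membrane calcium pumps.

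EMB lies on chromosome 5 of GRCh37 (chr5:49692026-49739082, minus strand), and its canonical transcript in GENCODE has 9 exons and 4202 nt. EMBP1, annotated in GENCODE as a transcribed unprocessed pseudogene, lies on chromosome 1. Over a block of 3902 aligned positions that starts at base 333 of the EMB transcript, EMB and the longest-matching EMBP1 transcript were 95.8% identical, with 113 mismatches and 52 gap positions. Within the 786 aligned coding positions, 98.0% were the same. The 60 coding bases of this block, free of gaps, where the pair differs most are shown to make clear how few letters separate their reads. They lie in exon 4 of EMB (chr5:49706734-49706793, minus strand, GRCh37), are given 5′ to 3′ from the GENCODE transcripts, and capitals mark the 5 bases that differ.
EMB: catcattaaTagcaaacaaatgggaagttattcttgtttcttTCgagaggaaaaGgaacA
EMBP1: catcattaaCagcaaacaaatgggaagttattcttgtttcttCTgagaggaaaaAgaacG

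Of all windows of 50 bases in the EMB transcript, 25.2% occurred unchanged in an EMBP1 transcript, and of windows of 100 bases 10.3% did. How reads that match both were counted is not given in the sources used here, so the split of counts between EMB and EMBP1 is uncertain. EMBP1 had 2, 6 and 4 counts in control and 1 in each knockdown library, too few for the expression filter. EMBP1 reads were few beside those of EMB given next.

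EMB had 147, 150 and 156 counts in control replicates 1 to 3 and 43, 60 and 51 counts in knockdown replicates 1 to 3. In CPM these were 11.7, 11.9 and 13.2 in control and 3.001, 3.52 and 2.82 in knockdown. The lowest control library was more than 3 times the highest knockdown library, and the groups did not overlap. The mean went from 12.3 ± 0.813 to 3.11 ± 0.363 CPM (mean ± SD of n = 3), and edgeR's log2 fold change was -1.95 ± 0.13 (SE), a 3.85-fold decrease. Over the 17 alternative fits it stayed between -2.05 and -1.87. In these bulk libraries, fewer EMB-expressing cells and less EMB RNA per cell cannot be told apart.

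**Figure D1:**
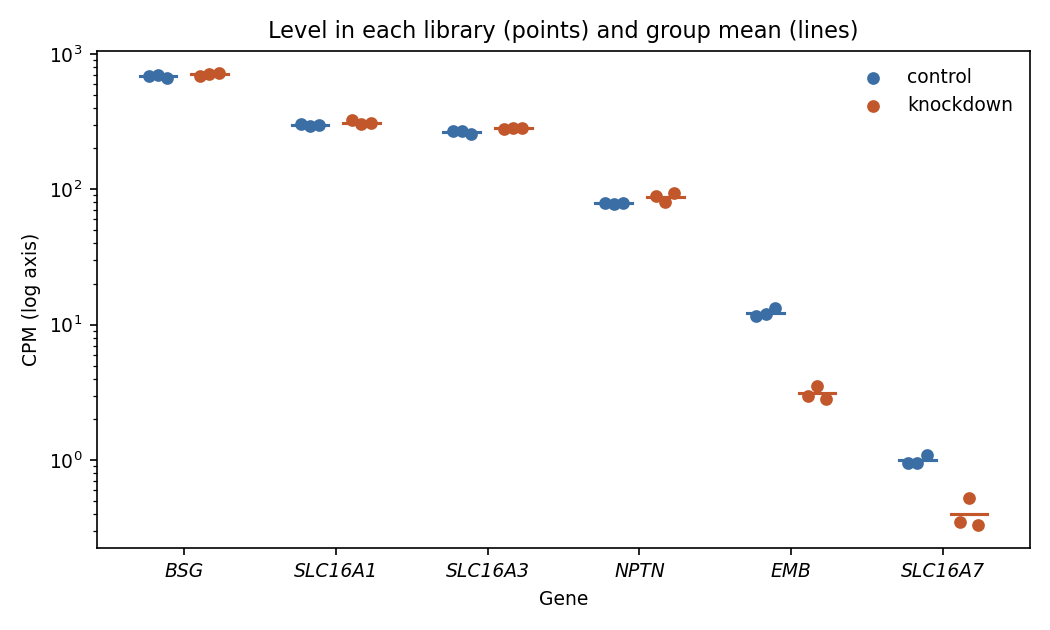
CPM (log axis) of each of the 6 genes in the 3 control and 3 knockdown libraries; points are libraries and lines are group means. EMB and SLC16A7 are lower in each knockdown library than in any control library. The other 4 genes sit close to their control level, with the largest relative rise in NPTN, from a mean of 78.9 to 88.2 CPM.

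Falls were ordered among genes that passed edgeR's threshold, averaged 100 counts or more and had groups that did not overlap; EMB took rank 4 of 1791. Just above it in this order stood SAMD11 (log2 fold change -2.05) and SLIT2 (-1.96), a secreted axon guidance ligand, and just below it CDH2 (-1.92), the N-cadherin gene, and PCDH9 (-1.92), a protocadherin. EMB itself had a mean of 101.2 counts, just inside that minimum of 100. Over all tested genes its fall ranked 99. The genes whose centred log2 CPM over the 6 libraries lay nearest to EMB by Euclidean distance, out of 10449 genes averaging 100 counts or more, were PCDH7 (0.14), SLIT2 (0.19), AKR1B1 (0.26), ID3 (0.31) and PCDH9 (0.34). PCDH7 fell from 17.7 ± 0.551 to 4.67 ± 0.580 CPM and ID3 from 17.1 ± 0.470 to 4.71 ± 0.190 CPM (mean ± SD of n = 3). Both were picked for a profile near that of EMB in these same 6 libraries, so a like fall was fixed by that choice.

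The size of changes varied with the level of a gene. Of 2550 tested genes with a mean of 50 to 200 counts, 5.84% fell at least 2-fold and 0.745% rose as much. Of 972 genes with a mean of 5 to 20 counts, the range of SLC16A7, 25.7% fell at least 2-fold and 2.47% rose. At 2000 to 8000 counts, the range of SLC16A1 and SLC16A3, these shares were 0.0731% and 0.0%. In the lowest of these ranges the filter itself selects for change: 41.3% of its genes reached the minimum of 0.743 CPM in all control libraries but not in all knockdown libraries, and 16.4% the reverse, against 0.0% and 0.235% in the range of EMB.

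**Figure D2:**
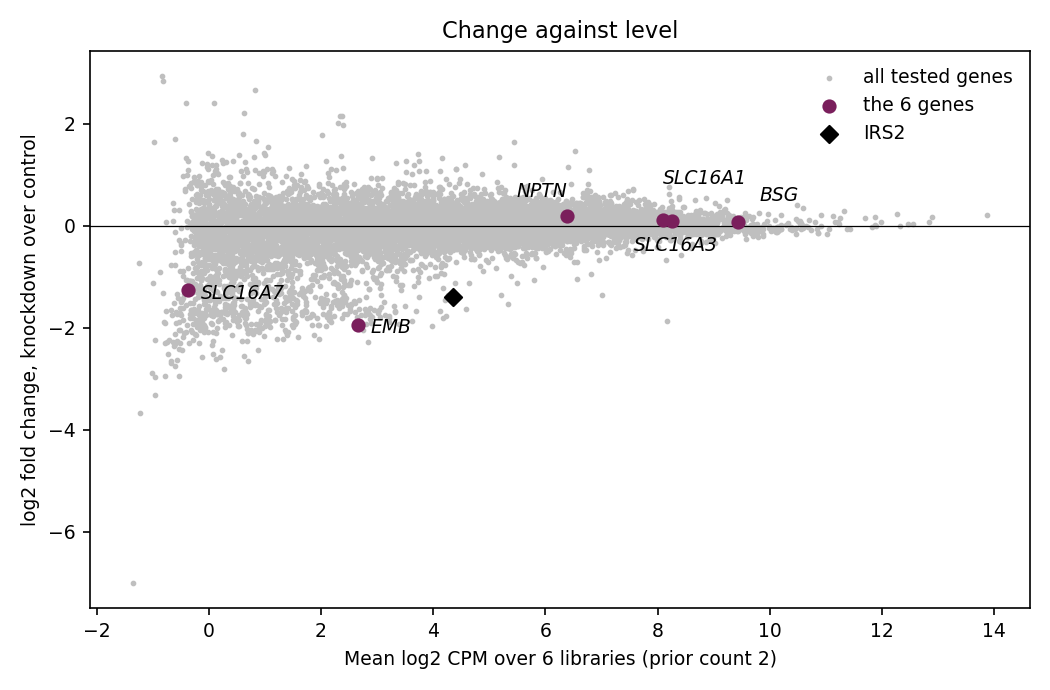
Log2 fold change of knockdown over control against mean log2 CPM for all 13832 tested genes (grey), the 6 genes (purple) and IRS2 (diamond). EMB, at -1.95, lies at the lower edge of the genes of its level, SLC16A7 lies within a broad group of low genes that fell, and the other 4 genes lie just above 0.

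The protein-coding neighbours of EMB on chromosome 5, 3 on each side, were compared as well where tested, and none of these 4 passed in edgeR. The nearest protein-coding gene on one side, PARP8, starts 222.7 kb away and had 7.10 ± 0.996 CPM in control cells against 7.43 ± 0.267 CPM (mean ± SD of n = 3; edgeR adjusted p 0.611). ISL1, a homeobox gene 940.2 kb away, had an edgeR adjusted p of 0.353, and PELO, 2345 kb away, of 0.164. On the other side only MRPS30, a mitochondrial ribosomal protein gene 4871 kb away, was tested, with an adjusted p of 0.618 in edgeR. No gene close to EMB was thus compared on that side.

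Markers of fibroblasts, cells that a colon line should lack, were low, and their sum was lower in each knockdown library than in any control library. The 8 markers summed to 9.56 to 28.2 CPM in control and 5.98 to 7.40 CPM in knockdown libraries, none was at 0 in all libraries, DCN and FAP had at most 3 counts in any library, and COL1A1 was the most abundant at a mean of 6.43 CPM. COL1A1 was at 15.3, 5.73 and 5.67 CPM in control and 4.26, 3.63 and 3.98 CPM in knockdown (edgeR adjusted p 0.0029). Of the 3 markers tested in edgeR, COL1A1 and COL3A1 (adjusted p 0.0136) were called lower and PDGFRB was not (0.609). COL3A1 had 34, 19 and 5 counts in control and 6, 3 and 14 in knockdown, so its groups overlapped. COL1A2, not tested, had 86, 11 and 3 counts in control and 8, 1 and 8 in knockdown. Over all tested genes 19.2% were called lower. Control replicate 1 held the most COL1A1 and the least EMB of the 3 controls. Its EMB counts lay within counting error of replicate 3 (exact Poisson intervals at 95% confidence 124.2 to 172.8 and 132.5 to 182.5). Without replicate 1 the log2 fold change of EMB was -1.98. Control replicates 2 and 3 held 11.3 and 9.56 CPM of the 8 markers, above each knockdown library. Which cells these marker transcripts came from, and any link with the fall of EMB, was not tested.

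BSG was by far the most abundant of the 6 genes, and its level moved little. Its CPM was 684.5, 693.4 and 666.8 in control and 690.8, 707.9 and 717.2 in knockdown, so that the first knockdown library lay within the control range. On edgeR's scale, where TMM factors adjust the library total, BSG rose by 5.67% (log2 fold change 0.08 ± 0.03 SE, adjusted p 0.0376). This small rise did not hold its place past the threshold when control replicate 1 (edgeR adjusted p 0.0735), control replicate 3 (0.109), knockdown replicate 2 (0.116) or knockdown replicate 3 (0.0751) was left out, nor with upper-quartile factors (0.137) or library size alone (0.159). Over all alternatives its adjusted p ran from 0.00392 to 0.159. BSG overlaps an antisense gene, BSG-AS1, by 952 bases, and the strand setting of the counting is not given in the sources used here.

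NPTN showed the largest rise of the 6 genes. It was at 79.2, 77.7 and 79.7 CPM in control and at 89.8, 81.2 and 93.6 CPM in knockdown. The groups did not overlap, though knockdown replicate 2 lay close to the controls. The mean went from 78.9 ± 1.05 to 88.2 ± 6.39 CPM (mean ± SD of n = 3), with an edgeR log2 fold change of 0.19 ± 0.05 (SE) and an adjusted p of 0.0051. It passed the threshold in all 17 alternative fits, with log2 fold changes from 0.14 to 0.25 and adjusted p-values up to 0.0297. NPTN-IT1, which lies inside NPTN on the same strand, averaged 1.60 ± 0.701 CPM in control and 1.54 ± 0.381 CPM in knockdown cells (mean ± SD of n = 3; edgeR adjusted p 0.937).

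To compare the 3 immunoglobulin proteins with each other, CPM was divided by the length of each canonical transcript in kb. On this scale BSG was at 350.2 ± 6.97 in control and 362.4 ± 6.89 in knockdown, NPTN at 32.6 ± 0.435 and 36.5 ± 2.64, and EMB at 2.92 ± 0.194 and 0.740 ± 0.0864 CPM per kb (mean ± SD of n = 3). BSG thus ranked 145 of 13250 tested genes with a length, NPTN 2338 and EMB 10488. Of the summed level of the 3 genes, BSG made up 90.8% ± 0.300 in control and 90.7% ± 0.581 in knockdown. The share of EMB was 0.758% ± 0.0622 in control and 0.185% ± 0.0232 in knockdown (mean ± SD of n = 3), so EMB was a minor part of the family in both groups. The level of BSG was 126.5, 125.4 and 109.1 times that of EMB in control libraries and 497.0, 434.8 and 550.0 times in knockdown libraries. With the union of all annotated exons as the length, the mean ratio was 65.9 in control and 270.1 in knockdown. The ratio of NPTN to BSG changed by 0.11 on the log2 scale (exact two-sided permutation p = 0.3), where 3 against 3 libraries cannot give a p below 0.1.

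SLC16A1 and SLC16A3, the carriers that pair with basigin, were both abundant. SLC16A1 was at 303.9, 294.7 and 296.7 CPM in control and 322.0, 303.6 and 306.4 CPM in knockdown. One knockdown library, replicate 2, fell just below the highest control. Its edgeR log2 fold change was 0.09 ± 0.03 (SE), a rise of 6.24% with an adjusted p of 0.0365. The call was lost without control replicate 2 (edgeR adjusted p 0.108), control replicate 3 (0.0768) or knockdown replicate 1 (0.158), and with upper-quartile factors (0.119) or library size alone (0.164). Over all alternatives the adjusted p ran from 0.0168 to 0.164.

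SLC16A3 was at 269.9, 268.0 and 255.3 CPM in control and at 278.2, 285.3 and 281.2 CPM in knockdown. The groups did not overlap, and the mean went from 264.4 ± 7.93 to 281.6 ± 3.55 CPM (mean ± SD of n = 3). The edgeR log2 fold change was 0.12 ± 0.03 (SE), a rise of 8.74% with an adjusted p of 0.00629, and it passed in all 17 alternative fits (highest adjusted p 0.0395). In the annotation the span of SLC16A3 overlaps CSNK1D, a kinase gene on the opposite strand, by 22107 bases, so its counts could hold reads of that gene.

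SLC16A1 overlaps an antisense gene, SLC16A1-AS1, by 1179 bases. SLC16A1-AS1 moved the other way from SLC16A1, from 13.7 ± 0.676 to 11.02 ± 1.46 CPM (mean ± SD of n = 3), with an edgeR log2 fold change of -0.30 and an adjusted p of 0.0258. This call was lost without control replicate 1 (edgeR adjusted p 0.0811), control replicate 2 (0.0902), knockdown replicate 2 (0.121) or knockdown replicate 3 (0.0864), and over all alternatives its adjusted p ran from 0.00577 to 0.180. Reads from the shared bases cannot be told apart where strand was not kept.

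**Figure D3:**
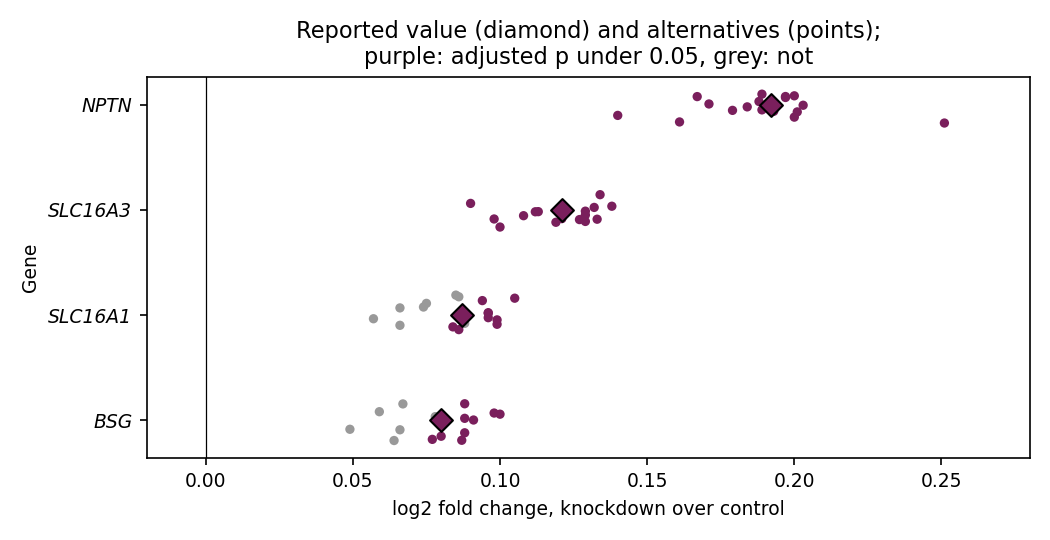
Log2 fold change of knockdown over control for the 4 genes that rose, as reported (diamonds) and under each of 17 alternative fits (points); purple marks an adjusted p under 0.05 and grey one above it. All values are above 0; those of NPTN and SLC16A3 are purple throughout, and 8 of 17 are grey for both BSG and SLC16A1.

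SLC16A7, the carrier that prefers embigin, was near the limit of detection. It had 12, 12 and 13 counts in control and 5, 9 and 6 counts in knockdown, or 0.954, 0.955 and 1.10 CPM against 0.349, 0.527 and 0.331 CPM. The groups did not overlap, but counting error alone is wide at this depth: the exact Poisson interval at 95% confidence ran from 6.20 to 21.0 for the 12 counts of control replicate 1 and from 4.12 to 17.1 for the 9 counts of knockdown replicate 2, and it covers counting error only. The edgeR log2 fold change was -1.26 ± 0.38 (SE) with an adjusted p of 0.0118. SLC16A7 passed the low-count filter only through its control libraries, which favours a difference. It missed the threshold without knockdown replicate 3 (adjusted p 0.0506) and in DESeq2's Wald test (0.135), and over the alternatives its adjusted p ran from 0.00725 to 0.135. Per length it ranked 13243 of 13250 genes.

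On the scale of CPM per kb of transcript, SLC16A3 was at 101.7 ± 3.05 in control and 108.3 ± 1.37 in knockdown, SLC16A1 at 79.5 ± 1.28 and 82.8 ± 2.64, and SLC16A7 at 0.0840 ± 0.00705 and 0.0337 ± 0.00909 (mean ± SD of n = 3). The order of the first pair rests on the transcript lengths used: the mean control ratio of SLC16A3 to SLC16A1 was 1.28 with canonical transcripts, 0.802 with the longest transcripts and 0.609 with all annotated exons. SLC16A7 made up 0.0464% ± 0.00483 of the 3 carriers' level in control and 0.0177% ± 0.00479 in knockdown. The ratio of SLC16A3 to SLC16A1 was 1.28, 1.31 and 1.24 in control libraries and 1.25, 1.36 and 1.33 in knockdown libraries, which overlapped (exact two-sided permutation p = 0.4). The difference was 0.03 on the log2 scale. The ratio of SLC16A7 to SLC16A1 was lower in each knockdown library than in any control library, by 1.40 on the log2 scale. SLC16A7 had only 5 to 13 counts per library and passed the low-count filter through its control libraries only. The exact two-sided permutation p of 0.1, the smallest that 3 against 3 libraries can give, is therefore no support for a change.

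All 6 genes passed the low-count filter, SLC16A7 through its control libraries only. In edgeR's quasi-likelihood test NPTN, SLC16A3, SLC16A1 and BSG passed an adjusted p of 0.05 and were higher, where 38.5% of the 13832 tested genes passed, 19.3% higher and 19.2% lower. At their own levels more genes were called higher: 27.5% of those with a mean of 600 to 2400 counts, the range of NPTN, 37.7% at 2000 to 8000 counts, the range of both carriers, and 27.9% at 5000 to 20000 counts, the range of BSG. Of these 4 genes, control and knockdown CPM did not overlap for NPTN and SLC16A3, and the same held for 48.4% of all tested genes. With upper-quartile factors or library size alone, BSG and SLC16A1 did not pass.

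Promoters were read from the RefSeq table (GRCh38.p14), in which 4 of the 6 genes matched: BSG, NPTN, SLC16A3 and SLC16A7, but not EMB or SLC16A1. They were searched on both strands for ACGTG, the core of the element that hypoxia-inducible factor is known to bind, in the 250 bases before each listed start. A match was found before 1 of 2 starts of BSG, the single start of NPTN and 1 of 5 starts of SLC16A3, and before neither of 2 starts of SLC16A7. Of all 35116 promoters in the table, 18.5% held it. The promoters with a match are shown 5′ to 3′, from chr19:572346-572595 (plus strand) for BSG, chr15:73633390-73633639 (minus strand) for NPTN and chr17:82228792-82229041 (plus strand) for SLC16A3, with the matched letters in capitals.
BSG: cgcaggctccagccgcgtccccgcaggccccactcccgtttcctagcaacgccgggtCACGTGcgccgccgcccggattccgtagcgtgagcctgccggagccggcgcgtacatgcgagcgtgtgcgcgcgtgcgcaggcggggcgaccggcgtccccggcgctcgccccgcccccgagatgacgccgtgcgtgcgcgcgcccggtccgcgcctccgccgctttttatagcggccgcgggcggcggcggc
NPTN: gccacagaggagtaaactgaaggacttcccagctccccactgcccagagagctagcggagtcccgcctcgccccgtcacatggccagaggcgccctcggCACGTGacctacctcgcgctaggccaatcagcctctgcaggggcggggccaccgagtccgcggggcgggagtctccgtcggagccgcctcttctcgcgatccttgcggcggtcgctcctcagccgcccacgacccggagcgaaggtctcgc
SLC16A3: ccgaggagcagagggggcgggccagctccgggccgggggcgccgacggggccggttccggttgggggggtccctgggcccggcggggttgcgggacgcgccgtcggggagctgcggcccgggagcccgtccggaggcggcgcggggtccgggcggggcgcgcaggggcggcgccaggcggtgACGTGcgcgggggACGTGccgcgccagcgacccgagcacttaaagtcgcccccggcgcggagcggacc

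In BSG and NPTN the match reads the same on both strands and forms a palindrome, CACGTG, which 6.34% of the promoters held. In SLC16A3 the letters occur 2 times, starting at bases 183 and 196 of the printed run. A match describes these letters only.

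Since SLC16A3 is known as a hypoxia target, 14 other such genes were listed, of which 13 were tested. The list is not complete, and its counts and median depend on the genes chosen. In edgeR 6 rose and 4 fell, where 19.3% and 19.2% of all tested genes did, and the median log2 fold change was 0.14, against -0.004 over all tested genes. HK2, a hexokinase, rose from 144.4 ± 1.24 to 169.5 ± 2.77 CPM (adjusted p 5.12e-06) and NDRG1 from 198.9 ± 5.68 to 220.2 ± 0.577 CPM (0.000325). VEGFA, an angiogenic growth factor, fell from 9.98 ± 0.304 to 6.65 ± 0.825 CPM (0.000858), and BNIP3, a mitophagy receptor, from 4.97 ± 0.609 to 2.03 ± 0.518 CPM (6.7e-05; mean ± SD of n = 3; edgeR). SLC2A1, HK2, EGLN3, KDM3A, NDRG1 and CA9 were the members that rose, and BNIP3, VEGFA, ADM and PDK1 those that fell. DESeq2's Wald test called 6 of the listed genes. SLC2A1, HK2, CA9 and PDK1 also stand in other lists below, so their calls are counted there again.

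The rest of the carrier families was mostly low. Of 12 other genes listed from the SLC16 family and the sodium-coupled carriers, 7 were tested, and in edgeR 1 rose, 2 fell and 4 did not pass, with a median log2 fold change of 0.12, where 38.5% of all tested genes passed. SLC16A6, known to export ketone bodies, was the most abundant and rose from 44.8 ± 1.74 to 57.6 ± 2.19 CPM (log2 fold change 0.39 ± 0.05 SE, adjusted p 5.02e-06; mean ± SD of n = 3; edgeR). This rise passed in all 17 alternative fits.

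SLC16A14 and SLC16A9 fell, both from low levels. SLC16A14 had 17, 12 and 9 counts in control and 4, 8 and 8 in knockdown (edgeR log2 fold change -1.30, adjusted p 0.0127), and it missed the threshold without control replicate 1 (0.083) or knockdown replicate 1 (0.0523). Like SLC16A7, it passed the low-count filter through its control libraries only. SLC16A9 had 26, 27 and 24 counts in control and 18, 25 and 20 in knockdown (edgeR log2 fold change -0.68, adjusted p 0.0352), and 5 of the 6 fits that each left out one library lost the call, with adjusted p-values from 0.0687 to 0.121 where it was lost. Without control replicate 1 or without knockdown replicate 1, 1 gene of this list passed in place of 3. In CPM, SLC16A10, a carrier of aromatic amino acids, was at 14.5 ± 0.771 and 13.1 ± 1.54 (adjusted p 0.358), SLC16A5 at 12.3 ± 1.29 and 13.6 ± 0.575 (0.162), SLC16A13 at 5.91 ± 0.889 and 6.30 ± 0.347 (0.535) and SLC16A4 at 2.54 ± 0.557 and 2.90 ± 0.454 (0.452; mean ± SD of n = 3; edgeR). SLC16A8, SLC16A11 and SLC16A12 had at most 10 counts in a library and were not tested.

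SLC5A8, the sodium-coupled carrier that takes up butyrate in normal colon, had no read in any library. With 3 counts taken as the limit that a count of 0 allows, this is up to 0.254 CPM in the shallowest library, for counting error only. SLC5A12 had 2, 2 and 3 counts in control and 0, 0 and 1 in knockdown.

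Of 23 genes that make or use the carried substrates 20 were tested, and in edgeR 4 rose, 5 fell and 11 did not pass, with a median log2 fold change of -0.01. This is near the share over all tested genes (19.3% higher, 19.2% lower). LDHA, the lactate dehydrogenase subunit that favours lactate, had 1166 ± 6.50 CPM in control cells against 1067 ± 27.6 CPM (mean ± SD of n = 3). Its edgeR log2 fold change was -0.10 ± 0.03 (SE, adjusted p 0.00875), and the call was lost without knockdown replicate 1 (0.0609). LDHB, the other subunit, had 1160 ± 11.3 CPM in control cells against 1113 ± 37.9 CPM (mean ± SD of n = 3; edgeR adjusted p 0.473). LDHC, the testis form, fell from 1.25 ± 0.324 to 0.247 ± 0.124 CPM (mean ± SD of n = 3; edgeR adjusted p 0.000353), and it passed the low-count filter through its control libraries only, which favours a fall.

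At the entry of pyruvate into mitochondria, PDK3, a kinase that inhibits pyruvate dehydrogenase, rose from 84.3 ± 3.65 to 122.8 ± 4.75 CPM (log2 fold change 0.57 ± 0.04 SE, adjusted p 5.66e-09; mean ± SD of n = 3; edgeR). PDHB, a subunit of that complex, fell from 75.7 ± 1.502 to 63.7 ± 1.45 CPM (adjusted p 0.000601), and PDP2, a phosphatase that activates it, from 19.3 ± 1.09 to 15.3 ± 1.40 CPM (0.00529; mean ± SD of n = 3; edgeR). PDP2 missed the threshold in DESeq2's Wald test (adjusted p 0.0674). The mitochondrial pyruvate carrier genes MPC1 and MPC2 had edgeR adjusted p-values of 0.743 and 0.107. MPC2 passed without knockdown replicate 3 (edgeR adjusted p 0.00256), with a log2 fold change of -0.30. It also passed with counts thinned to the smallest library (0.0113), with a log2 fold change of -0.27. Without knockdown replicate 2, 5 genes of this list passed in place of 9.

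Because the carriers move a proton with each substrate, genes of acid handling were examined. Of 16 genes 11 were tested, and in edgeR 4 rose, 2 fell and 5 did not pass (median log2 fold change 0.08), where 19.3% of all tested genes were called higher and 19.2% lower. CA12, a membrane carbonic anhydrase, rose from 29.6 ± 0.291 to 38.5 ± 1.61 CPM (adjusted p 1.5e-05), and SLC4A2, an anion exchanger, from 410.2 ± 14.2 to 445.0 ± 9.83 CPM (0.000936; mean ± SD of n = 3; edgeR). CA9, another membrane carbonic anhydrase, rose from 4.88 ± 0.791 to 6.47 ± 0.481 CPM (edgeR adjusted p 0.0232). This call was lost without control replicate 2 (0.134), knockdown replicate 2 (0.0811) or knockdown replicate 3 (0.0549), and in DESeq2's Wald test (0.137). CA2, the cytosolic form, fell from 7.86 ± 0.931 to 3.37 ± 0.483 CPM (adjusted p 5.49e-06), and SLC4A4, a sodium bicarbonate carrier, from 1.86 ± 0.797 to 0.564 ± 0.299 CPM (0.00223; mean ± SD of n = 3; edgeR). SLC4A4 passed the low-count filter through its control libraries only.

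Of 16 genes for proteins known to pair with, bind or follow basigin or neuroplastin, 12 were tested, and in edgeR 2 rose, 2 fell and 8 did not pass (median log2 fold change -0.03), near the 38.5% called over all tested genes. Of the calcium pump genes whose products pair with neuroplastin, ATP2B1 rose from 75.8 ± 1.41 to 89.5 ± 2.63 CPM (adjusted p 4.28e-05) and ATP2B4 fell from 24.1 ± 0.962 to 15.4 ± 2.04 CPM (9.04e-06; mean ± SD of n = 3; edgeR). SLC2A1, the glucose transporter, rose from 1058 ± 18.2 to 1119 ± 23.4 CPM (0.00383), and MMP14, a membrane metalloproteinase, fell from 75.7 ± 2.21 to 65.6 ± 2.59 CPM (0.00415; mean ± SD of n = 3; edgeR). Those that did not pass included PPIA, the cyclophilin that binds basigin, and CD44.

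**Figure D4:**
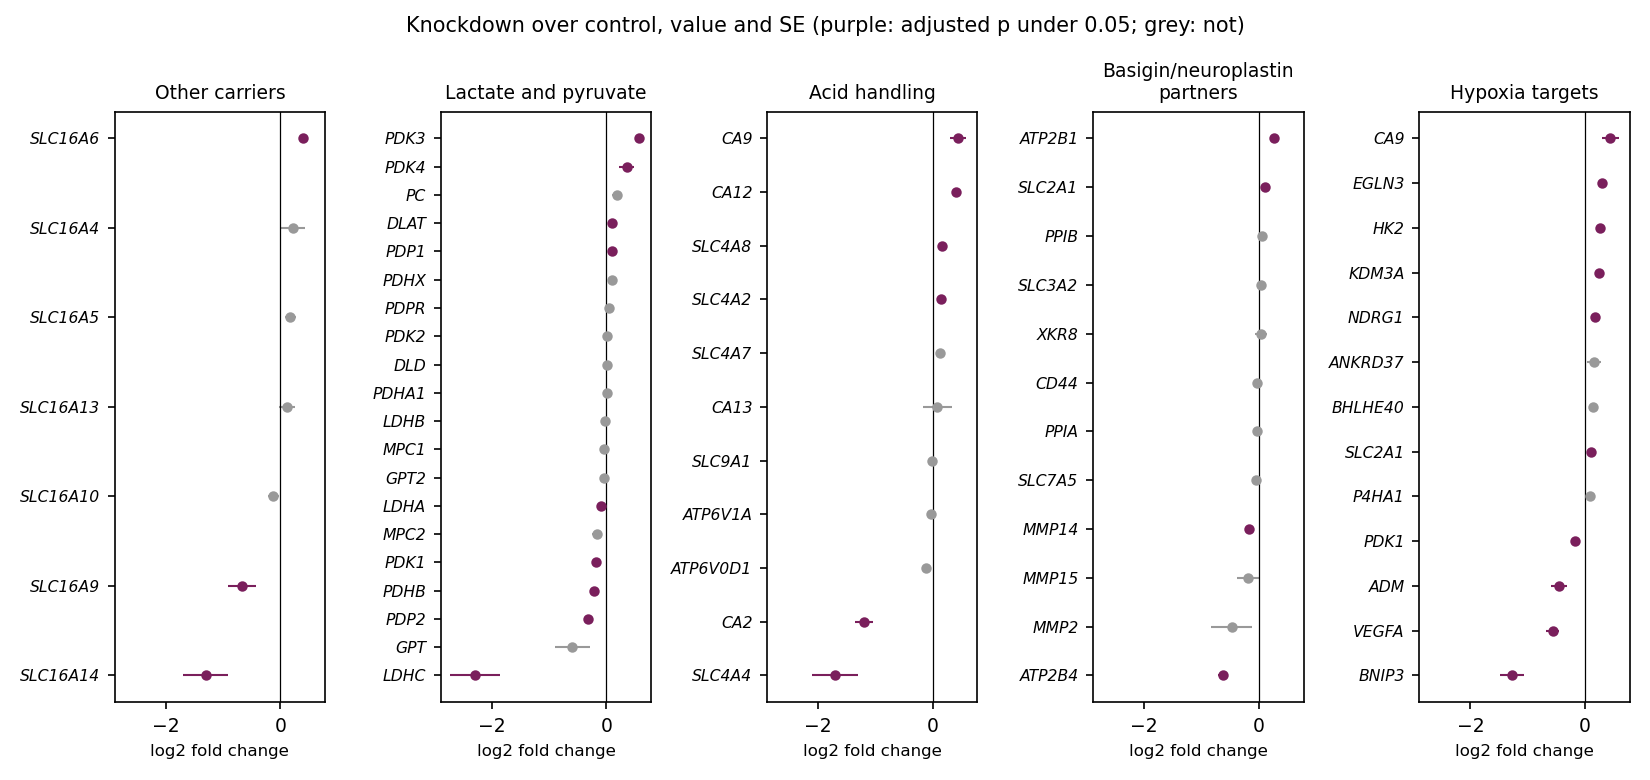
Log2 fold change of knockdown over control with its SE for the tested genes of 5 lists; purple marks an edgeR adjusted p under 0.05 and grey one above it. Each list holds purple genes on both sides of 0, and the values furthest from 0 belong to genes at low levels such as LDHC and SLC4A4.

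Glycolytic genes, which supply the pyruvate and lactate, were all tested. Of 17, edgeR called 9 higher, 3 lower and 5 in neither direction, with a median log2 fold change of 0.07. Over all tested genes 19.3% were called higher and 19.2% lower. At 5000 to 20000 counts, the level of 6 of these 17 genes, 27.9% were called higher and 22.1% lower. Of those 6, GPI was called higher and PGK1 and PGAM1 lower. Among the other genes called higher, HK2, PFKP and ENO2 lie at 600 to 2400 counts (27.5% called higher) and HK1 at 2000 to 8000 (37.7%). PFKFB3, GAPDH, ENO1 and PKM lie outside these ranges. HK2 (above) and ENO2, a neuronal enolase, rose, the latter from 46.2 ± 2.002 to 54.4 ± 1.75 CPM (adjusted p 0.000376), while PGK1 fell from 675.0 ± 7.19 to 582.9 ± 9.46 CPM (4.59e-05) and PFKL from 131.4 ± 4.50 to 110.4 ± 1.72 CPM (0.00013; mean ± SD of n = 3; edgeR). With library size alone, 4 were called higher and 4 lower, and without knockdown replicate 2, 7 genes passed in place of 12.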

How the data were processed

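RNA-seq counts per gene symbol were deposited by the authors as raw whole numbers, one column per library. The authors also deposited a normalized signal; its values equal the counts over 1 constant per library (0.847 to 1.25). The submitters' processing notes name STAR 2.6.1a, Salmon, DESeq2 and hg19, with no role or order; annotation and strand setting are not given in the sources used here. Sample descriptions named the columns, and 0 sample columns went unused.

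Counts were tested with edgeR 4.0.16 (R 4.3.3): TMM factors, filterByExpr, glmQLFTest on a model of group alone, and Benjamini-Hochberg adjustment over all 13832 tested genes, threshold 0.05. The SE follows from the log2 fold change and the F statistic (its size over the root of F). CPM uses library totals. Transcript lengths and GRCh37 positions come from GENCODE 44 lifted to GRCh37. Centred log2 CPM used a prior count of 2. Ratios between genes were compared by an exact permutation test. The procedure was checked on simulated data with large changes in well-counted genes only. That check does not bear on the small rises or the low-count genes reported here.

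The members and lists were chosen with earlier results of these data known. Named were the 6 members, IRS2, the other carriers and genes sharing reads, LDHA, LDHB, MPC1, MPC2, CA9, CA12, up to 4 genes with the smallest p in each other list, 2 genes on each side of EMB in the order of falls, the 5 nearest profiles and, of 3 protein-coding neighbours on each side, those tested (some genes are not reported here); other names, such as KRT18, COL1A1, CSNK1D, PPIA and CD44, were chosen after their values were seen. Alternatives were other scalings and filters, DESeq2 1.42.0, limma 3.58.1 (voom, and log2 of the deposited values plus 1), thinned counts, a replicate block, a length and GC correction, and leaving out each library. Depth per library is given in the report; at 10 counts or fewer counting error dominates.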

Additional observations from a re-analysis of the deposited data

How the results depend on the processing

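Of 84 values of the 5 genes other than EMB under the alternatives, 66 gave the same sign and call, 18 no longer passed, and 0 changed sign. The losses belonged to BSG (8), SLC16A1 (8) and SLC16A7 (2). Counting SLC16A7, the number of genes other than EMB that passed was 5 as reported, 3 with upper-quartile factors, library size alone or the replicate block, 2 with a mean of at least 50 counts (which leaves SLC16A7 untested), and 3 to 4 in the fits that each left out one library.

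Of the other carriers, 3 passed as reported, 1 with a mean of at least 50 counts (fewer genes tested), 1 in DESeq2's Wald test, and 1 to 3 without one library. Leaving out one library gave 5 to 9 genes of lactate and pyruvate and 7 to 10 of glycolysis. DESeq2's Wald test called 6 hypoxia targets against 10. The cause of these changes was not tested.

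The replicate numbers, shared by both groups, did not pair the libraries: after the group means were removed, libraries 1, 2 and 3 of both groups correlated at 0.05, -0.02 and -0.11. With the replicate block 4862 genes passed against 5329, 7 glycolytic genes against 12, and BSG (adjusted p 0.0882) and SLC16A1 (0.0664) did not.

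Sign changed for genes that had not passed: NPTN-IT1 (0.031 with limma voom, 0.06 on the deposited normalized values, and -0.36 to 0.19 without one library, with 0.19, 0.12 and 0.16 without control replicate 1, control replicate 3 and knockdown replicate 3), LDHB (0.025), MPC1 (0.045) and MRPS30 (0.004) with the length and GC correction, and MPC1 (0.013) without knockdown replicate 2, where leaving out one library gave -0.093 to 0.013. Depth limits EMBP1, SLC16A7, SLC16A9 and SLC16A14.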
